A study of Mus musculus with 4 samples.

Results

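The major urinary protein (Mup) genes were examined in the liver mRNA of 4 female F1 mice between the inbred strains C57BL/6J (B6) and MSM/Ms (MSM). Members were chosen by name alone, as every gene called Mup followed only by digits, which gave 15 of the 8797 genes listed for each mouse. All 4 mice were 5 months old and carried 1 chromosome set of each strain. In the MxB cross the mother was MSM and the father B6 (replicates 1 and 2), and in the reciprocal BxM cross the parents were exchanged (replicates 1 and 2). Expression was given as FPKM, the fragments of a transcript scaled to its length and to the fragments mapped in the library, so levels can be set side by side between genes.

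MUPs are small barrel-shaped lipocalins made by hepatocytes, secreted into the blood and passed into the urine, where they carry volatile scent molecules. Their genes lie in a single array of near-identical copies. In mouse liver they are known as targets of pulsatile growth hormone acting through STAT5B, and males express most of them more strongly than females. Mup20 encodes darcin, a pheromone of male urine.

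The GENCODE M21 annotation of GRCm38 (mm10) holds 22 protein-coding Mup genes at chr4:59956804-62150863, an interval of 2.19 Mb. Of the 15 listed genes, 14 lie on the minus strand and Mup6 lies on the plus strand. The tables used here did not list Mup2, Mup4, Mup5, Mup7, Mup15, Mup18 and Mup22. None of the 26 Mup pseudogenes annotated on chromosome 4 was listed either (0 of 26).

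Many of the copies shared long identical stretches. A stretch of 90 bases of the coding exon 2, shown for 7 genes, is printed from the coding strand of GRCm38, with capitals at bases that differ from Mup9. It was picked for having the most variable positions among these genes (29), so differences in it are not typical of the coding sequence. Mup9 and Mup8 had the highest mean FPKM, Mup3 was the listed gene least identical to Mup9, and Mup16, Mup17, Mup19 and Mup20 were chosen after their values were seen. On the minus strand of chromosome 4 the stretch lies at chr4:60421359-60421448 in Mup9, chr4:60221942-60222031 in Mup8, chr4:62086840-62086929 in Mup3, chr4:61518893-61518982 in Mup16, chr4:61595233-61595322 in Mup17, chr4:61781631-61781720 in Mup19 and chr4:62053520-62053609 in Mup20.
Mup9: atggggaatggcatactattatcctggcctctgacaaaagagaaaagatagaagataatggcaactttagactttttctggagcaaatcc
Mup8: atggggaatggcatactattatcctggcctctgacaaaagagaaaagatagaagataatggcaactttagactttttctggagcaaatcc
Mup19: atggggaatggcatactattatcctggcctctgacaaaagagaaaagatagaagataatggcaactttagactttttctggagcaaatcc
Mup16: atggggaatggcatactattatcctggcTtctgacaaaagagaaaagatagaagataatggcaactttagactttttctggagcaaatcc
Mup17: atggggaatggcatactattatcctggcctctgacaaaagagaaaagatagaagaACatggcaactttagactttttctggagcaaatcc
Mup20: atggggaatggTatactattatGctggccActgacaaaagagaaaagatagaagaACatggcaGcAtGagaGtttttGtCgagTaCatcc
Mup3: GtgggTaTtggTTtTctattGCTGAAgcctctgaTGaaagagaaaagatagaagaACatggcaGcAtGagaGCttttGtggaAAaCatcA

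Mup8 and Mup19 matched Mup9 at every base of this stretch, and Mup16 differed at 1 base (C129T, with Mup9 first and positions counted from the first base of its coding sequence). Mup17 differed at 2 bases (T156A and A157C), Mup20 at 13 and Mup3 at 26. Over the 319 bases of coding exons 2 to 4, Mup9 was identical to Mup19 and to the unlisted Mup18. Mup1, Mup11 and Mup12 were identical to each other over the same bases. Mup3 and Mup21 formed a separate pair that shared 96.6% of these bases, whereas Mup3 shared 79.9% with Mup9.

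Because sequenced reads were 150 bases long, the share of 150-base windows of each transcript that also occur, without a mismatch, in another annotated gene of the cluster was counted. It was 98.8% for Mup19, 87.4% for Mup1, 84.4% for Mup10 and 78.3% for Mup9. Mup8 (45.6%), Mup17 (40.4%) and Mup20 (31.1%) had more sequence of their own, and Mup3, Mup6 and Mup21 shared no window (0%). The authors allowed at most 1 alignment per read, so a read from a shared window was placed at a single gene. FPKM values of Mup9, Mup19 and the other genes with shared windows are therefore uncertain as values of single genes. Reads were sequenced in pairs, whereas the share counts single reads. It can thus overstate how many pairs could not be placed.

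Promoter sequence was taken from RefSeq (GRCm38.p6), which matched 9 of the 15 genes, over 250 bases before to 50 after the gene start. The motif TATAA, searched on both strands, occurred in 9 of these 9 promoters and in 24.9% of 32851 mouse promoters. The STAT5 motif TTCNNNGAA occurred in 0 of 9 (8.3% of all) and a palindromic steroid receptor element in 0 of 9 (0.47% of all). Part of 3 promoters is shown for a member of each kind, namely Mup9, the close copy Mup10 (93.1% identical to Mup9 over the promoter) and the distant Mup3 (61.7%), with TATAA in capitals. They lie on the minus strand at chr4:60421953-60422072, chr4:60582156-60582275 and chr4:62087318-62087437.
Mup9: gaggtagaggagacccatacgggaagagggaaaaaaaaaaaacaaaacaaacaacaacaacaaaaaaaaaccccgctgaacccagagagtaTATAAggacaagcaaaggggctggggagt
Mup10: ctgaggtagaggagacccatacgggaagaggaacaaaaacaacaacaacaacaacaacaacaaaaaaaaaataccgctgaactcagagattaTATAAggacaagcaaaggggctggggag
Mup3: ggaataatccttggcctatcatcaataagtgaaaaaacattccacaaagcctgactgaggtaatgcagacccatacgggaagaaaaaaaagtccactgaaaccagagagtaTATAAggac

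Each mouse is a single liver library. Read counts per gene were not given. The paper states the sequenced read pairs only as a range over the libraries, so the depth of each single library is unknown. The FPKM summed over all genes was between 529024 and 572780 in 3 mice and 671875 in MxB replicate 1, which was 624851 without the microRNA gene Mir3470a. Of the 5 hepatocyte markers listed, Apoa1 and Ttr were high in every mouse (2539 to 6988 FPKM). Cps1 was at 1522 to 1855 FPKM and Tat at 403 to 1424 FPKM. Cyp2e1 went another way, listed at 0 in both MxB mice and at 4876 and 6541 FPKM in the BxM mice. Of 27 markers of other liver and blood cells 15 were listed, and their summed FPKM was 593 and 379 in the MxB mice and 1037 and 742 in the BxM mice. The largest part of this sum in each mouse was the red cell gene Hba-a2, at 175, 83.2, 610 and 398 FPKM in the same order, and its part in the Mup values was not tested. In whole liver, fewer cells of a type and less RNA per cell cannot be told apart.

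Mup expression was concentrated in a few genes. Mup9 was highest in the BxM mice, Mup8 came next, and Mup3, Mup1, Mup10 and Mup13 followed at roughly comparable levels. Mup8 was at 6251 and 2945 FPKM in MxB replicates 1 and 2 and at 4059 and 3193 FPKM in BxM replicates 1 and 2, a mean of 4112 ± 1504 (SD, n = 4). Mup8 was above Mup3 in every mouse and their ranges did not overlap.

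Mup3 was at 2027, 1231, 1417 and 1509.9 FPKM in the same order of mice (mean 1546 ± 341, SD, n = 4). Mup1 was at 2270.3, 980.4, 1454 and 1251 FPKM (mean 1489 ± 556). The order of these neighbours was not fixed, since Mup3 was above Mup1 in 2 of 4 mice. Mup10 was at 1522, 719, 1025 and 946 FPKM and Mup13 at 1221, 601, 821 and 669 FPKM. Mup1 exceeded Mup10, and Mup10 exceeded Mup13, in each of the 4 mice, although the ranges overlapped.

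A middle tier was made of Mup17, Mup11, Mup12 and Mup14. Mup17 was below Mup13 in every mouse without overlap and above Mup11 in 3 of 4 mice. Mup11 ranged from 140.1 to 298 FPKM, Mup12 from 86.6 to 237 FPKM and Mup14 from 45.2 to 120.3 FPKM, in this order within every mouse. At the low end were Mup6, at 6.39 to 16.2 FPKM, and Mup21, at 6.59 to 14.3 FPKM, with Mup6 higher in 2 of 4 mice.

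**Figure D1:**
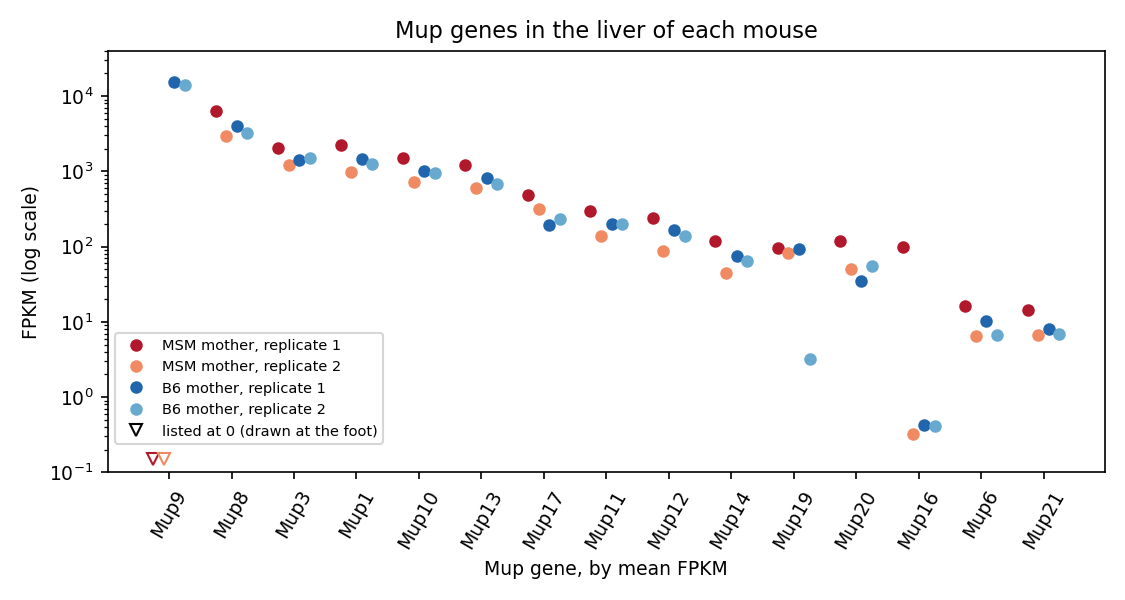
FPKM on a log axis of the 15 Mup genes, ordered by mean FPKM, with 1 point per mouse and open triangles for values listed at 0. Mup9 is listed at 0 in both MxB mice and at 13995 and 15147 FPKM in the BxM mice, and MxB replicate 1 is the highest mouse for each of the other 14 genes.

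Position along the array gave no steady order. Mup8, Mup9, Mup1 and Mup10 are neighbours and were all among the most abundant genes, whereas Mup3 reached 1546 FPKM in the mean next to Mup20 and Mup21 at the other end. Mup6, which stands at the first end of the array, was at 9.89 FPKM in the mean.

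**Figure D2:**
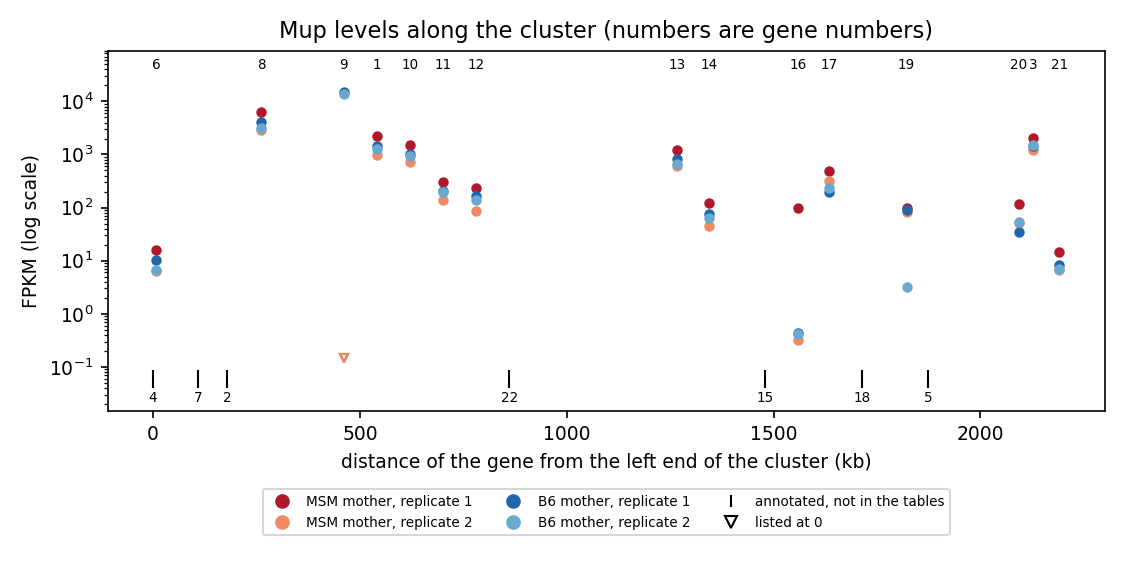
FPKM on a log axis of the listed Mup genes in each mouse, against distance in kb from the left end of the cluster, with ticks at the foot for the 7 annotated genes not in the tables. Mup8, Mup9, Mup1 and Mup10 form a run of high genes, and elsewhere genes of unlike level are neighbours, as with Mup3 (1546 FPKM in the mean) beside Mup21 (8.98 FPKM).

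As listed, Mup9 separated the crosses completely. It was listed at 0 in both MxB mice and at 15147 and 13995 FPKM in the BxM mice, where it had rank 1 and rank 2 among all genes listed. Its log2(FPKM + 1) difference, MxB minus BxM, was -13.83 (SE 0.14; limma, Benjamini-Hochberg adjusted p = 1.25e-06). Each alternative limma fit that kept Mup9 also called it. With 0 in both MxB mice and such high values in the BxM mice that outcome was set in advance, so it adds no support. The log2 difference is set by the zeros and the pseudocount, so no fold is given.

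An exact 0 can be a failed estimate, and 2 values bear on it directly. Mup9 had a B6-allele frequency in both MxB mice, 0.548 and 0.667, which needs allele-assigned reads in the gene. Cyp2e1, an abundant ethanol-metabolizing cytochrome of hepatocytes, was also listed at 0 in both MxB mice and at 4876 and 6541 FPKM in the BxM mice, with frequencies of 0.516 and 0.546 in the MxB mice. Of 33 genes listed at 0 in any mouse, 31 had small RNA symbols, and Mup9 and Cyp2e1 were the other 2 and the 2 that had a frequency.

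Over the whole table, limma called 4 of 8797 genes between the crosses (0.0455%), namely Mup9, Cyp2e1, Mir1957b and Snord104, and each was listed at 0 in both MxB mice. When genes listed at 0 in any mouse were left out, an alternative chosen after seeing the data, limma called 0 of 8764 genes and 0 of 14 Mup genes (1 Mup gene at an unadjusted p under 0.05).

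Apart from Mup9, no Mup gene passed the test between the crosses. Among these 14 genes, 13 were higher and 1 lower in MxB, with a median log2 difference of 0.23 against 0.02 over all genes tested. However, 4 of them (Mup3, Mup10, Mup11 and Mup14) turned to lower in MxB when every mouse was scaled to the same total. That total includes Mir3470a, at 47024 FPKM in MxB replicate 1 and 0 in the other mice, and scaling without it was not tried. Without MxB replicate 1, 10 of the 14 turned to lower in MxB. The count was 0 of 14 (limma adjusted p 0.463 to 0.984), and 1 of them had an unadjusted p under 0.05, as did 8.87% of all genes (780 of 8797). The values of the crosses did not overlap for Mup9 and Mup17, 2 of 15 members, compared with 42.4% of all genes.

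Mup17 was at 484 and 313 FPKM in the MxB mice and at 196 and 236 FPKM in the BxM mice. Both MxB mice were above both BxM mice, with a log2 difference of 0.85 (SE 0.25; limma adjusted p = 0.463). Its adjusted p lay between 0.0857 and 1 in the alternative limma fits, so it was called in none. Mup20, the darcin gene, was at 117, 50.2, 35.0 and 54.6 FPKM in MxB replicates 1 and 2 and BxM replicates 1 and 2, so the crosses overlapped (log2 difference 0.80, SE 0.42, limma adjusted p = 0.603).

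Mup16 and Mup19 were each set apart by a single mouse. Mup16 was at 99.1 FPKM in MxB replicate 1 and at 0.321, 0.432 and 0.414 FPKM in the other mice, a highest value 309-fold above the lowest. Mup19 was at 96.9, 83.0 and 91.8 FPKM in the first 3 mice and at 3.17 FPKM in BxM replicate 2, a range of 30.5-fold. Neither differed between the crosses with all mice (limma adjusted p = 0.628 and 0.627). Without MxB replicate 2 Mup16 passed (log2 difference 6.14, limma adjusted p = 0.000103), and without BxM replicate 1 Mup19 passed (4.44, limma adjusted p = 0.000786). In each of these fits the cross is left with only the mouse that stands apart, which is assumed to vary like the other cross, so these calls compare a single mouse and not the crosses.

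These 2 genes are among those with many shared windows, 72.4% for Mup16 and 98.8% for Mup19. Outside them and Mup9, the highest value exceeded the lowest by 1.65-fold (Mup3) to 3.34-fold (Mup20). A large share did not always go with a wide range, as Mup1 (87.4% shared) varied 2.32-fold and Mup6 (0% shared) 2.53-fold.

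**Figure D3:**
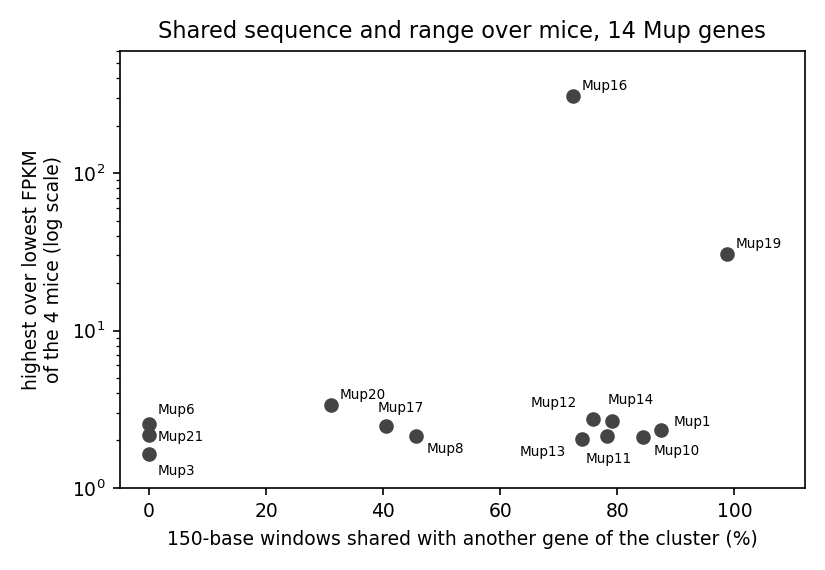
Highest over lowest FPKM of the 4 mice, on a log axis, against the percentage of 150-base windows shared with another gene of the cluster, for the 14 Mup genes other than Mup9. Mup16 (309-fold at 72.4%) and Mup19 (30.5-fold at 98.8%) stand above the others, which lie between 1.65-fold and 3.34-fold at 0% to 87.4%.

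The larger contrast lay between the mice of the MxB cross. MxB replicate 1 was the highest of the 4 mice for 14 of 14 Mup genes other than Mup9, while 39.2% of 8764 genes without a 0 were highest there. MxB replicate 2 was the lowest for 11 of 14 (26.8% of all genes), BxM replicate 1 for Mup17 and Mup20, and BxM replicate 2 for Mup19. As reads of one copy may be placed at another, these genes are not independent of each other.

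The ratio of MxB replicate 1 to MxB replicate 2 had a median of 2.15 over the 14 genes and ran from 1.55 (Mup17) to 2.74 (Mup12) in the 12 genes without Mup16 and Mup19. Over all genes its median was 1.04, with 0.707 and 1.47 at the 5th and 95th percentiles. Between the BxM mice the median ratio of replicate 1 to replicate 2 was 1.17 for the Mup genes and 0.99 for all genes. Mup3, Mup6 and Mup21, which share no window with another gene, summed to 2058 FPKM in MxB replicate 1 and 1244 in MxB replicate 2, a ratio of 1.65. Mup3 made up nearly all of this sum (2027 and 1231 FPKM), and the same ratio was 2.53 for Mup6 and 2.18 for Mup21. The 10 members with shared windows other than Mup9 and Mup20 gave a ratio of 2.13, between that of Mup3 and those of Mup6 and Mup21.

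The family sum depended on Mup9. Over all 15 genes it was 14774 and 7207 FPKM in the MxB mice and 24707 and 22271 FPKM in the BxM mice, which was 2.20%, 1.34%, 4.67% and 3.89% of the FPKM of all genes. As listed, the sums of both BxM mice were above those of both MxB mice, by 2.14-fold in the means. Since Mup9 had allele-assigned reads in the MxB mice but is listed at 0 there, the MxB sums may lack a Mup9 value that was not estimated, and the 2.14-fold cannot be read as a difference in Mup expression. Mup9 made up 61.3% and 62.8% of the sum in the BxM mice and none of it in the MxB mice (0%).

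Without Mup9 the direction turned, and the crosses overlapped. The remaining 14 genes summed to 14774 and 7207 FPKM in the MxB mice and to 9559.6 and 8275 FPKM in the BxM mice. The mean was 10991 ± 5351 in MxB and 8918 ± 908 in BxM (SD, n = 2 each), 1.23-fold higher in MxB and within the spread of the MxB mice. No test was made of a sum over chosen genes.

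**Figure D4:**
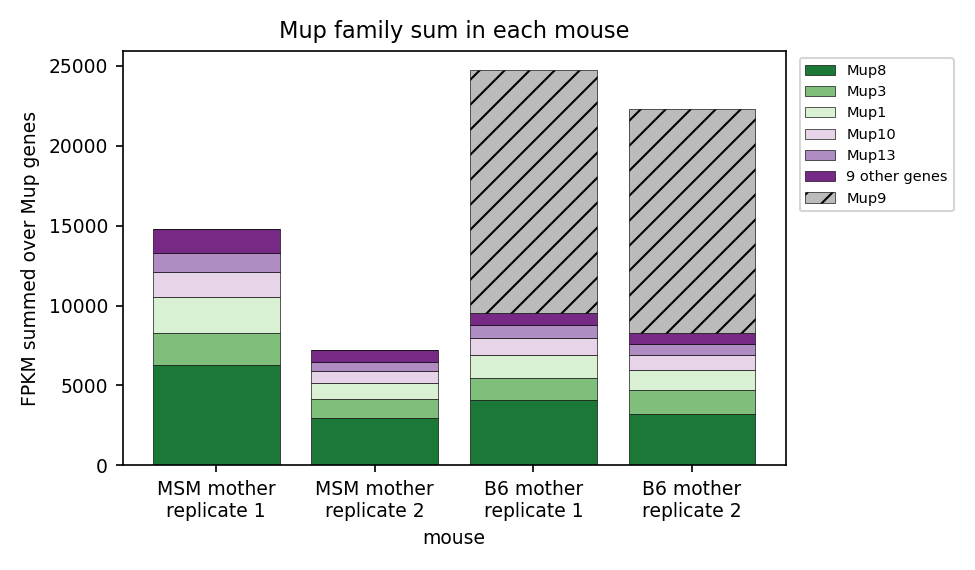
FPKM summed over the Mup genes in each mouse, stacked by gene from 0, with Mup9 hatched at the top. The hatched part is 61.3% and 62.8% of the bar in the BxM mice and missing in the MxB mice, and without it the bars stand at 14774, 7207, 9559.6 and 8275 FPKM.

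In its 5 leading genes the make-up of the sum without Mup9 was steadier than its size. Mup8 contributed 42.3%, 40.9%, 42.5% and 38.6% in the 4 mice, so that its coefficient of variation fell from 36.6% as a level to 4.38% as a share. Mup13 contributed 8.08% to 8.59%. The leading 5 genes, Mup8, Mup3, Mup1, Mup10 and Mup13, together held 89.9% to 91.8%. Mup8 was itself 41.05% of this sum in the mean, so its share and the sum are not independent. Among the leading 5 genes Mup3 moved least closely with the rest, at 13.7% and 17.1% in the MxB mice and 14.8% and 18.3% in the BxM mice. The coefficient of variation of its share was 12.9%. It was higher for the shares of Mup6 (14.5%), Mup12 (15.2%), Mup20 (29.2%), Mup17 (30.4%), Mup19 (69.4%) and Mup16 (194.6%). For Mup19 it rose from 64.1% as a level. The shares of the crosses did not overlap for 6 of the 14 genes, of which Mup17, Mup20 and Mup21 were higher in MxB and Mup10, Mup11 and Mup12 higher in BxM. The share of Mup17, for instance, was 3.28% and 4.34% in MxB and 2.06% and 2.85% in BxM, and that of Mup10 was 10.3% and 9.97% in MxB and 10.7% and 11.4% in BxM. As levels, the values of the crosses did not overlap for 42.4% of all genes, and 6 of 14 is near that rate. No test was made of these shares.

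Allelic origin was available for Mup3, Mup8 and Mup9, 3 of the 15 genes. The B6-allele frequency divides the reads assigned to B6 by those assigned to either strain, so that 0.5 means equal reads of both alleles. Of these genes, Mup8 alone was called above 0.5, and none reached a mean of 0.8, the limit used in the study for a B6-biased gene. How many reads stand behind each frequency is unknown. Mup8 and Mup9 share 45.6% and 78.3% of their windows with other genes of the cluster. Their frequencies may therefore include reads of other copies.

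Mup8 had frequencies of 0.656 and 0.667 in the MxB mice and 0.824 and 0.650 in the BxM mice. All 4 mice were above 0.5, with a mean of 0.699 ± 0.0832 (SD, n = 4) and log2 odds of 1.26 (SE 0.26; limma adjusted p = 0.0403). In the same test 822 of 3632 genes, 22.6%, were called above 0.5. The call was lost without MxB replicate 1 (log2 odds 1.28, limma adjusted p = 0.140), without MxB replicate 2 (1.25, adjusted p = 0.143) and with the replicate block (1.26, adjusted p = 0.0733), although the log2 odds hardly moved. It was kept when either BxM mouse was left out and on the other scales tried (adjusted p 0.0208 to 0.0493).

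Mup9 had frequencies of 0.548 and 0.667 in the MxB mice and 0.625 and 0.512 in the BxM mice, again above 0.5 in every mouse (mean 0.588 ± 0.0706; log2 odds 0.52, SE 0.19, limma adjusted p = 0.126). A frequency above 0.5 in all 4 mice was seen for 33.9% of all genes. Mup3 had 0.750 and 1 in the MxB mice and 0.333 and 0.750 in the BxM mice, a mean of 0.708 ± 0.276 (log2 odds 2.20, SE 1.10, limma adjusted p = 0.208). One mouse was thus below 0.5 and another had B6 reads alone. Values of 0.333, 0.750 and 1 can come from very few reads.

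Between the crosses, limma called 3 of 3632 genes (0.0826%), and 0 of the 3 Mup genes, with limma p-values before adjustment of 0.172 for Mup3, 0.333 for Mup8 and 0.581 for Mup9. Their log2 odds differences, MxB minus BxM, were 3.82 (SE 2.20), -0.59 (SE 0.52) and 0.24 (SE 0.39). The Mup frequencies were wide apart between mice. Their SDs of 0.0706 to 0.276 compare with a median of 0.0272 over all genes and 0.0368 over the 60 genes with a mean of at least 1000 FPKM. A frequency was seldom given in this region, where 8 of the 204 listed genes of chromosome 4 below 100 Mb had one, and 3 of these 8 were Mup genes. The 88 genes with a frequency below 100 Mb on chromosomes 1 to 15 and X, the Mup genes among them, had a median SD of 0.291. The SD of each of the 3 Mup genes was below that, so a wide spread was not particular to them.

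**Figure D5:**
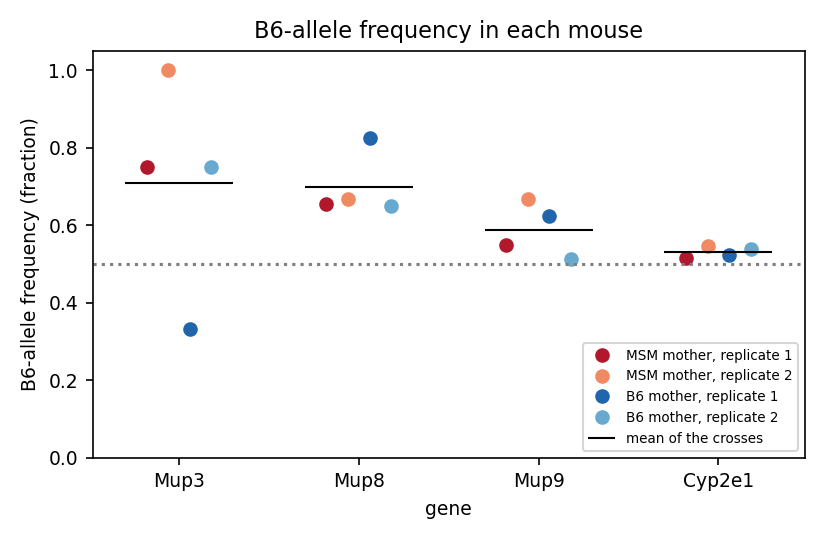
B6-allele frequency (fraction, 0 to 1) of the 3 Mup genes that have one and of Cyp2e1, with 1 point per mouse, a bar at the mean of the crosses and a dotted line at 0.5. Mup8 and Mup9 lie above the line in all 4 mice, Mup3 spreads from 0.333 to 1, and Cyp2e1 stays at 0.516 to 0.546.

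In a list of 22 genes of the growth hormone pathway and liver transcription factors, none was called between the crosses. All 22 were tested and 0 passed in either direction, with a median log2 difference of -0.10 and 3 unadjusted p-values under 0.05 (8.87% of all genes). The growth hormone receptor Ghr was at 267 and 221 FPKM in the MxB mice and 196 and 241 FPKM in the BxM mice. Its target Igf1 was at 215 and 221 against 175 and 165 FPKM, and the transcription factor Cebpa at 204 and 143 against 172 and 209 FPKM. The summed FPKM of the list differed little between the MxB mice (1.02-fold). In MxB replicate 1, 2 of the 22 genes were highest, against 39.2% of all genes without a 0.

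Of 18 male-biased liver genes 15 were tested and 0 passed, while 4 of the 15 had an unadjusted p under 0.05, against 8.87% of all genes. Their median log2 difference was 0.08, and 8 of 15 were highest in MxB replicate 1, against 39.2% of all genes without a 0. The list summed to 1386 FPKM in MxB replicate 1, 894 in MxB replicate 2 and 1031 and 920 in the BxM mice. The most abundant were the glucuronosyltransferase Ugt2b1, the oxysterol hydroxylase Cyp7b1 and the fatty acid hydroxylase Cyp4a12b. Ugt2b1 was at 245, 142, 157 and 145 FPKM and Cyp4a12b at 197, 143, 106 and 92.2 FPKM, both highest in MxB replicate 1. Cyp7b1 was at 154, 103, 171 and 144 FPKM and was highest in BxM replicate 1.

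Of 22 female-biased liver genes 22 were tested and 0 passed (7 of the 22 at an unadjusted p under 0.05, against 8.87% of all genes), with a median log2 difference of -0.0025. The cytochromes Cyp3a41a, Cyp3a41b and Cyp2c40 were the most abundant. Cyp3a41a was at 1213 and 861 FPKM in the MxB mice and 1405 and 1002 in the BxM mice. In MxB replicate 1, 7 of the 22 genes were highest, against 39.2% of all genes without a 0.

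Of 12 other lipocalins 9 were tested, and 8 of the 9 were highest in MxB replicate 1, against 39.2% of all genes without a 0. None of the 9 passed (0 of 9, 2 unadjusted p-values under 0.05, against 8.87% of all genes). Their median log2 difference was 0.36, against 0.02 over all genes tested. The retinol carrier Rbp4 was at 2957 and 2506 FPKM in the MxB mice and 2015 and 2703 FPKM in the BxM mice. Ambp, the precursor of alpha-1-microglobulin, ranged from 1549.8 to 1698 FPKM, and the complement subunit C8g was at 577, 406, 357 and 396 FPKM.

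Among the genes beside the array none was called. No listed gene lay between the outermost Mup genes other than the Mup genes (0 genes), and 21 listed genes lay within 2 Mb on either side, of which 0 passed (1 unadjusted p under 0.05), with a median log2 difference of 0.06. The nearest were Snx30 on the left, a sorting nexin at 2.40, 2.45, 3.50 and 3.15 FPKM, and Slc31a2 on the right, a copper transporter at 4.45, 4.51, 4.19 and 4.35 FPKM. Of these 21 genes 11 were highest in MxB replicate 1, against 39.2% of all genes without a 0. Ambp, Orm1, Orm2 and Orm3 are counted here and among the other lipocalins. Of 5 hepatocyte markers tested 1 passed, Cyp2e1, which was listed at 0 in the MxB mice as given above, and of the 15 markers of other cells 0 passed (4 of the 15 at an unadjusted p under 0.05, against 8.87% of all genes).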

How the data were processed

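Poly(A) liver RNA of 4 mice was sequenced from strand-specific libraries. Reads had been trimmed by the authors (Trim Galore), aligned to SNP-masked mm10 (TopHat2, 1 alignment per read), split by allele (SNPsplit) and summarised per gene (Cuffdiff). Versions are not given in the sources used here, and the labels name no batch. The deposited values were FPKM per gene and, for some genes, the B6-allele frequency, a fraction of allele-assigned reads, whose number is unknown. Members and lists were chosen with earlier results of these data known.

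Crosses were compared with limma 3.58.1 (R 4.3.3) with a variance trend on log2(FPKM + 1), which understates changes of low genes, in genes of mean FPKM of at least 1 (all 8797). Frequencies were limited to 0.01 and 0.99, turned into log2 odds and tested with limma against 0 and between crosses. All p-values are two-sided, adjusted by Benjamini-Hochberg over the whole table, and called at 0.05. On simulated data the expression test recovered 200 of 200 genes with a log2 difference of 2 and called 7 of the other genes. In the mice, differences of about this size or more did not pass for Hba-a2 (-2.02, limma adjusted p = 0.339) and Hbb-bs (-2.435, limma adjusted p = 0.105). Nor did they for Mup16 (3.015, limma adjusted p = 0.628) and Mup19 (2.20, limma adjusted p = 0.627). The 4 genes called in the mice were each listed at 0 in both MxB mice. Recovery at the spread of the Mup genes was not tested. All Mup genes are named, and of each list the called genes and the 3 of highest mean FPKM. Proteins planned for printing were replaced by a coding stretch. Other pseudocounts, filters, scalings, a replicate block and omitted mice were tried.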

Additional observations from a re-analysis of the deposited data

How the results depend on the processing

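The count of Mup genes called between the crosses was 1. It was 1 to 2 when each mouse was left out in turn, 0 without genes listed at 0 (0 of 14, limma, 1 unadjusted p under 0.05) and 3 with the replicate block, where Mup16 and Mup19 joined Mup9 and 285 genes were called in all. Same-numbered mice did not deviate together across genes (r = -0.00299 across 8764 genes). The labels do not say whether the numbers pair the mice, and this correlation cannot exclude pairing that acts on some genes. In the related lists 1 gene was called. There were 5 after scaling every mouse to the same total, 21 with the replicate block, 0 without genes listed at 0 and 1 to 2 with a mouse left out, when Cyp3a16 (without MxB replicate 2) or Hbb-bs (without either BxM mouse) was added. The log2 ratio of the family sum, MxB over BxM, was -1.10. It was 0.30 without Mup9, 0.29 without Mup9, Mup16 and Mup19 (chosen after seeing the data), and -1.70 (without MxB replicate 1) to -0.67 (without MxB replicate 2) with a mouse left out. For the B6-allele frequency 1 Mup gene, Mup8, was called, 0 with the replicate block (limma adjusted p = 0.0733) and 0 to 1 with a mouse left out.

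Leaving out MxB replicate 1 turned 10 Mup genes to lower in MxB. Over the omitted mice the log2 difference ran from -0.46 to 0.75 for Mup1, -0.25 to 0.47 for Mup3, -0.34 to 0.88 for Mup6, -0.29 to 0.80 for Mup8, -0.45 to 0.63 for Mup10, -0.51 to 0.57 for Mup11, -0.79 to 0.65 for Mup12, -0.30 to 0.72 for Mup13, -0.60 to 0.79 for Mup14, -0.11 to 6.14 for Mup16, -0.033 to 4.44 for Mup19 and -0.16 to 0.86 for Mup21. Scaling to the same total, which includes Mir3470a, turned Mup3 (-0.018), Mup10 (-0.042), Mup11 (-0.098) and Mup14 (-0.035). The cross difference in log2 odds ran from -1.26 to 0.073 for Mup8 and -0.12 to 0.60 for Mup9. No turned value passed the test, and the cause was not tested. Of 192 alternatives for single genes 169 kept direction and side of the threshold. Read counts per gene are unknown and read pairs are stated only as a range over the libraries, so what depth limits could not be judged for single genes or mice.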

Other observations

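The genes whose pattern over the 4 mice was closest to the family sum were Lars2, Rn45s, Nr1d1, Apol9a and Snrpn. Likeness was the root mean square difference of centred log2(FPKM + 1) among 4797 genes of at least 10 FPKM in the mean. The family sum depends on Mup9, which is listed at 0 in the MxB mice. Likeness to it therefore cannot be read as likeness to Mup expression. The root mean square difference was 0.151 for Lars2, a mitochondrial leucyl-tRNA synthetase. Lars2 was at 135 and 73.0 FPKM in the MxB mice and 248 and 175 FPKM in the BxM mice. The difference was 0.158 for Rn45s, the ribosomal RNA precursor, at 552 and 221 FPKM in the MxB mice and 778 and 613 FPKM in the BxM mice. For the sum without Mup9, a pattern added after seeing the data, the closest were Csrp3 (0.0624), Aqp8 (0.0919), Psen2 (0.101), Ugt2b1 (0.107) and C9 (0.112). Aqp8, a water channel of hepatocytes, was at 89.5, 49.1, 65.4 and 49.6 FPKM. These genes were picked for that likeness, so a shared highest mouse restates the choice.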
